A study of Mus musculus with 8 samples.

Results

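The replication-dependent histone genes were taken as all symbols that begin with Hist1h, Hist2h, Hist3h or Hist4h. They accounted for 62 of the 18603 transcription start site windows with an H3K27me3 value and for 48 of the 22410 RNA rows, and 48 symbols were in both assays. The windows belonged to 6 genes for the linker histone H1, 17 for H2A, 16 for H2B, 11 for H3 and 12 for H4. Of these windows, 50 belonged to the Hist1 cluster on chromosome 13, spread over 2224 kb, and 9 to Hist2 by symbol. A further 2 belonged to Hist3 on chromosome 11, and 1, Hist4h4, lay on chromosome 6. Of the Hist2 windows 8 lay on chromosome 3 and 1, that of Hist2h2bb, on chromosome 13. The Hist2h2bb window has the same bounds and values as that of Hist1h2bc, so this stretch is counted under both symbols. The cells, naive CD4+ T cells, had been purified from the lymph nodes of mice on a 129SV/B6 background. The genotypes were Ezh1-/- (Ezh1 KO), Ezh2 fl/fl CD4-cre (Ezh2 KO), the combination of both (double KO), and WT. CD4-cre drives the recombinase from Cd4 regulatory sequence, so that the floxed part of Ezh2 is lost during T cell development. Each genotype had 1 H3K27me3 ChIP-seq library and 1 mRNA-seq library, 8 libraries in all, and the number of animals behind a library is not given in the sources used here. No difference therefore has a replicate check, and no p was computed.

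Replication-dependent histone genes supply the core and linker histones that package newly copied DNA. They are switched on in S phase, lie in clusters, mostly lack introns, and their mRNAs end in a conserved stem-loop, bound by the protein SLBP, in place of a poly(A) tail. Near-identical copies in a class encode the same or almost the same protein. Replication-independent histone genes such as H3f3a and H3f3b are used throughout the cell cycle and give polyadenylated mRNA. H3K27me3 is placed by the Polycomb complex PRC2, whose alternative catalytic subunits are Ezh1 and Ezh2, and is typical of silent developmental genes. Whether poly(A) RNA was selected for these libraries is not given in the sources used here.

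The stem-loop is shown because it is what these genes share and what sets their mRNAs apart. The mm9 genome was searched on the coding strand, within 150 bases after the stop codon, for the letters GG, any 3 bases, TT, any base, T, any base, A, any 3 bases and CC. This pattern of 16 bases was found in 59 of the 62 genes, against 0.359% of other coding genes. Hist1h2an, Hist2h2bb and Hist2h2be had no match in that stretch. It began 21 to 58 bases after the stop codon, with a median of 30. The 8 forms found over the annotated histone genes were led by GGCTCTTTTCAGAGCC, in 39 genes, followed by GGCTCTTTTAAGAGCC in 9 and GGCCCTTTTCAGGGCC in 8. The mm9 sequences of 5 members follow, 5′ to 3′ on the gene's strand and written as DNA, with the matched 16 bases in capitals. They lie at chr13:23831376-23831401 on the plus strand, chr13:23839067-23839092 on the plus strand, chr13:23844684-23844709 on the plus strand, chr13:23789953-23789978 on the minus strand and chr3:96066857-96066882 on the minus strand.
Hist1h1c: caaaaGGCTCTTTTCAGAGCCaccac
Hist1h2bb: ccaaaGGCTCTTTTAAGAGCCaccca
Hist1h3b: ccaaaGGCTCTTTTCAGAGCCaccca
Hist1h4c: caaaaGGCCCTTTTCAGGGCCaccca
Hist2h4: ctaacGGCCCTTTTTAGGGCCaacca
Hist1h2bb, the gene whose RNA differed most between genotypes, carries the form found in 9 genes.

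Promoters from RefSeq on GRCm38.p6, which reach from upstream of the gene start to just inside the gene, were matched for 57 of the 62 genes. TATAAA was found on either strand in 59.6% of them, against 14.2% of all 27025 promoters in the table. CCAAT was found in 86.0%, against 37.9% of all promoters. Every matched H1, H2A, H2B and H3 promoter held a CCAAT, and 3 of 11 H4 promoters did. ATTTGCAT, the octamer bound by POU-domain factors such as Pou2f1, was in 22.8%, against 1.75% of all promoters. It was found in 7 of 17 H2A and 6 of 14 H2B promoters and in no matched H1, H3 or H4 promoter. Some H2A and H2B promoters overlap, as those of Hist1h2ae and Hist1h2bg do, so the same octamer can count in both classes. The shares count promoters and not separate sites. Overlapping matches were not removed, and a match is a description of letters only. The promoters of 3 genes on which the results below turn follow, with the 3 motifs in capitals on either strand. They lie on GRCm38.p6 at chr13:22035571-22035870, chr13:23746484-23746783 and chr13:23752095-23752394, all on the plus strand. Hist1h2bk is transcribed away from Hist1h2ah, and the promoter stretches of the 2 genes overlap.
Hist1h2bk: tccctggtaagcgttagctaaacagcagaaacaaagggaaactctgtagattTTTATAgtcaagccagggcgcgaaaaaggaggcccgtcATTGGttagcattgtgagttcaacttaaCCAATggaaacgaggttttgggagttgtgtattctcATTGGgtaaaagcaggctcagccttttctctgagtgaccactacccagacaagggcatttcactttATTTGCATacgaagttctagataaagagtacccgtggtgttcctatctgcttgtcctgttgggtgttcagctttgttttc
Hist1h2bb: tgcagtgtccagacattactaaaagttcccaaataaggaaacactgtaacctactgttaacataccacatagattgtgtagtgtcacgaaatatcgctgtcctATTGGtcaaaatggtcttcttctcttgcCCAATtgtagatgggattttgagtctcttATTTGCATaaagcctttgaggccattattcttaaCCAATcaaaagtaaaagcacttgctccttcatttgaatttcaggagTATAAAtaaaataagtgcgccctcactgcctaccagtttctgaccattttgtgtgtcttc
Hist1h3b: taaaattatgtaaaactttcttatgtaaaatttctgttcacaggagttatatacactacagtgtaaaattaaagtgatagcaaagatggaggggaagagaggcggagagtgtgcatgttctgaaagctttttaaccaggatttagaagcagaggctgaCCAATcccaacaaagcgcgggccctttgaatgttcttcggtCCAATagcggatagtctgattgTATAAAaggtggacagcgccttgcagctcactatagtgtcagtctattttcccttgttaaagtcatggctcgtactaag

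In the Ezh1 KO, Ezh2 KO, double KO and WT libraries, ChIP depth recovered from the height of 1 read was 87.1, 78.2, 88.2 and 79.7 M reads, and RNA depth was 70.4, 40.7, 94.1 and 36.1 M reads. A median histone gene window then held 121, 142, 135 and 126 read equivalents. Ezh1 RNA was 0.196 in Ezh1 KO cells and 0.194 in double KO cells, against 1.12 in Ezh2 KO cells and 1.05 in WT. Ezh2 RNA, averaged over 21 exons, was 0.913, 1.08, 1.17 and 0.925 in the same order of genotypes as the depths, which does not check a deletion of part of the gene. At the Cd4 gene the H3K27me3 window had 193 in Ezh2 KO cells and 212 in double KO cells, against 24.1 in Ezh1 KO cells and 19.9 in WT, so the 2 libraries labelled CD4-cre stood apart there. All 6 measured T cell markers and 5 naive T cell markers had at least 1 RNA in every library. Summed B cell markers, all 7 measured, were 2.52 in Ezh1 KO cells, 5.14 in Ezh2 KO cells, 6.36 in double KO cells and 2.02 in WT. Summed CD8 T and NK markers, all 7 measured, were 2.70, 6.67, 4.60 and 3.25, and myeloid markers 2.14, 2.78, 3.07 and 1.61. Of these lists only the myeloid one had members at 0, 1 in Ezh2 KO cells, 2 in double KO cells and 2 in WT. In such bulk samples fewer cells of a type and less RNA per cell cannot be told apart.

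H3K27me3 at the histone genes was low in every genotype. The value of a window is its area, which adds up the coverage (per M reads) of all 25 bp bins in the 6 kb around the start site, and it was set against background windows, the 7077 windows whose genes lie in the top tertile of WT RNA. The median histone gene window was 8.41 in Ezh1 KO cells, 11.0 in Ezh2 KO cells, 9.23 in double KO cells and 9.53 in WT. These medians were 0.856, 0.992, 0.887 and 0.939 times the background median of the same library. No histone gene window reached 4 times the background median in any of the 4 libraries. In WT 12.0% of all windows passed this level, but only 1.03% of background windows did. At 2 times the background median there were 3 in Ezh1 KO cells, 3 in Ezh2 KO cells, 1 in double KO cells and 3 in WT. These were 4.84%, 4.84%, 1.61% and 4.84% of the histone gene windows. Of the background windows 9.88%, 5.28%, 7.49% and 7.53% were at that level in the same order, and of all windows in WT 31.1%. Windows of genes with high WT RNA were thus mostly low too, and the low level was not particular to histone genes.

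The 3 highest windows in WT were those of Hist1h2bk, Hist1h2ah and Hist3h2ba, an H2B, an H2A and a further H2B gene. Hist1h2bk had 26.5 in Ezh1 KO cells, 23.0 in Ezh2 KO cells and 15.7 in double KO cells, against 27.7 in WT. Hist1h2ah, whose window covers nearly the same DNA, had 26.7, 22.9 and 15.6, against 27.6 in WT. Hist3h2ba had 29.0 in Ezh1 KO cells, 27.2 in Ezh2 KO cells and 31.7 in double KO cells, against 26.6 in WT, so the highest Hist1 windows were lowest in double KO cells and the highest Hist3 window was not.

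The lowest windows in WT were those of Hist1h2ao, Hist1h4m and Hist2h3b. Hist1h2ao, an H2A gene, had 0.208 in Ezh1 KO cells, 0.232 in Ezh2 KO cells and 0.108 in double KO cells, against 0.227 in WT. In its window 3.06% of the 50-base stretches occur once in mm9, the sequenced read length, while the median over the histone gene windows was 90.1%. Hist1h4m, an H4 gene, had 4.88, 4.37 and 4.01 in the 3 mutants and 4.43 in WT, with 30.4% of its 50-base stretches found once. Its deposited window lies 20450 bases from the annotated gene start. Both windows had little sequence to which a 50-base read could be placed alone, and their low values cannot be told apart from that. Hist2h3b, an H3 gene, had 4.35, 8.60 and 5.71, against 6.23 in WT.

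By class, the median WT window was 11.5 for H1, 9.27 for H2A, 9.92 for H2B, 8.81 for H3 and 9.38 for H4. By cluster, the WT median was 9.92 for Hist1, 8.23 for Hist2 and 9.64 for the Hist4 window. The Hist2 median includes the Hist2h2bb window on chromosome 13. For the 2 Hist3 windows, which overlap, the median was 20.3, with Hist3h2ba at 26.6 and Hist3h2a at 14.0. Without Hist3 the clusters did not differ more than the classes did. Because 56 of the 62 windows overlap another member's window, they form 23 separate blocks and are not independent values. The Hist1 block with the most members held 8, Hist1h3c to Hist1h1a, with a mean of 8.18 in Ezh1 KO cells, 10.8 in Ezh2 KO cells and 8.47 in double KO cells, against 10.5 in WT.

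**Figure D1:**
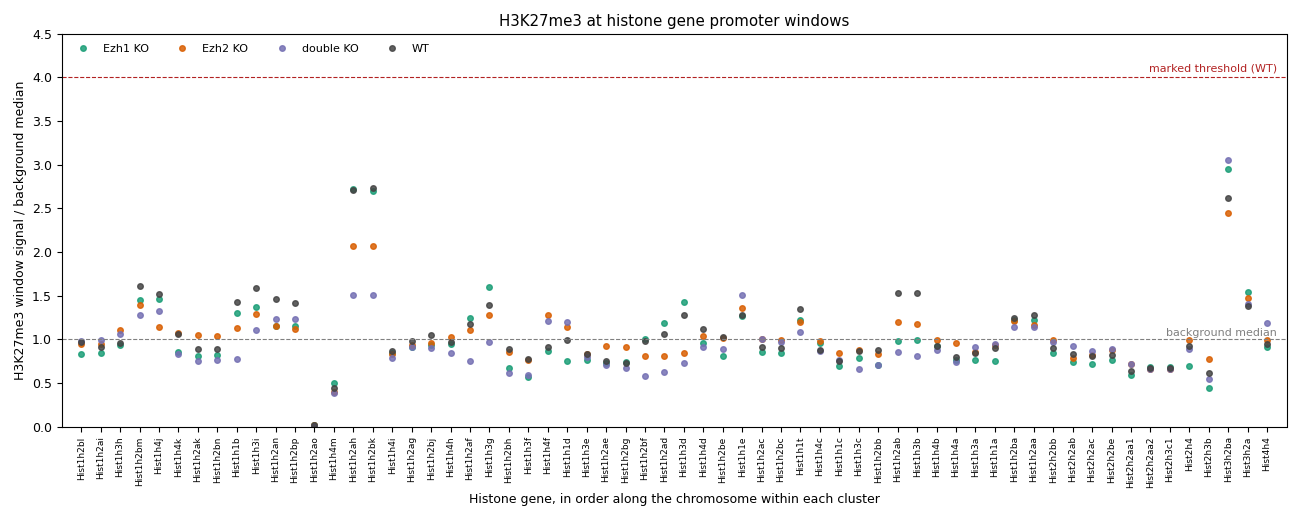
H3K27me3 window area divided by the background median of the same library (y axis) for 62 histone gene windows in chromosome order within each cluster (x axis), with 1 point per genotype. Most points lie near 1, none reaches 4, and Hist1h2ah, Hist1h2bk and Hist3h2ba stand above the others in Ezh1 KO, Ezh2 KO and WT cells. In double KO cells only Hist3h2ba does, and Hist1h2bk and Hist1h2ah, with areas of 15.7 and 15.6, lie beside Hist1h1e with 15.7.

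Other genes within the histone regions had a higher median of the mark. The 22 windows of other genes that overlap no histone gene window had a median of 21.3 in Ezh1 KO cells, 20.9 in Ezh2 KO cells and 19.9 in double KO cells, against 19.7 in WT. The highest were Pom121l2 and Prss16, in the Hist1 region, with 70.5 and 70.1 in WT, and Fcgr1, an Fc receptor gene beside Hist2, with 55.5. Bola1 at 6.45, Trim11 at 7.82 and Sf3b4 at 9.29 were under the histone median of 9.53 in WT. Histone gene windows in the same regions stayed at or under 31.7 in every library.

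Against WT, none of the 61 histone gene windows over the minimum value of 1 differed 2-fold in H3K27me3 in any mutant. Hist1h2ao was under it in every library. In the Ezh1 KO the 61 windows over the minimum had a median log2 ratio of -0.13, with 8 above 0 and 53 below, while the median of all 17972 windows tested was 0.09 and that of background windows -0.01. Over all windows 0.0111% were at least 2-fold higher and 0.0223% at least 2-fold lower in this comparison, and 64.2% lay above 0. In the Ezh2 KO the median was 0.10, with 45 above 0 and 16 below, beside -0.01 for all windows and 0.09 for background windows. All-window shares at 2-fold were 0.0167% higher and 0.0167% lower, and 48.5% lay above 0. In the double KO the median was -0.08, with 22 above 0 and 39 below, beside 0.05 for all windows and 0.04 for background windows. All-window shares there were 0.0334% higher and 0.139% lower at 2-fold, and 59.6% lay above 0. With the highest bin of each window in place of its area, the histone median less that of all windows shrank to -0.03, -0.01 and -0.04 in the 3 mutants, where areas gave -0.22, 0.11 and -0.14, so that the sign turned in Ezh2 KO cells.

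The windows that differed most lay in Hist1. In the double KO 8 windows were at least 1.5-fold lower than in WT, against 1.48% of all windows. They were Hist1h3b, Hist1h2bk, Hist1h2ah, Hist1h1b, Hist1h2ab, Hist1h3d, Hist1h2ad and Hist1h2bf, and they fall into 4 of the overlapping blocks. Hist1h3b, an H3 gene, had 8.40 in double KO cells, against 15.5 in WT, a log2 ratio of -0.81 with a 95% counting interval of -1.21 to -0.55. Hist1h2bk and Hist1h2ah had log2 ratios of -0.78 each, from the values given above. Hist1h1b, a linker histone gene, had 8.11 in double KO cells, against 14.4 in WT, a log2 ratio of -0.76. Counting intervals, which are exact Clopper-Pearson intervals and cover counting error only, lay wholly below 0 for 13 of 61 windows and wholly above for 3 in double KO cells, where 9.3% and 18.5% of all windows did so. The intervals were formed without the 1 that was added for the printed ratios, so they belong to slightly different ratios.

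The largest differences upward in double KO cells were at Hist1h4f, an H4 gene, with 12.6 against 9.22 in WT, at Hist4h4 with 12.3 against 9.64, and at Hist1h1d, a linker histone gene, with 12.4 against 10.1. Their log2 ratios were 0.41, 0.32 and 0.28. Hist1h4f was also the window furthest up in Ezh2 KO cells, with 14.2 and a log2 ratio of 0.57 (counting interval 0.28 to 0.96), followed by Hist2h3b at 0.41 and Hist1h2bg at 0.40. The double KO and the Ezh2 KO share the WT library in these ratios. Furthest down in Ezh2 KO cells were Hist1h3d at -0.43, Hist1h4j at -0.26 and Hist1h2bk at -0.26.

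In the Ezh1 KO 2 windows were at least 1.5-fold lower, against 0.256% of all windows. Hist1h2ab, an H2A gene, had 9.61 in Ezh1 KO cells, against 15.6 in WT, a log2 ratio of -0.64 with a counting interval of -1.02 to -0.38. Its overlapping neighbour Hist1h3b had 9.73, against 15.5, a log2 ratio of -0.62, and Hist2h3b followed at -0.43. The highest ratios in Ezh1 KO cells were 0.14 at Hist1h3g, 0.12 at Hist3h2ba and 0.11 at Hist1h4m, each with a counting interval that included 0. Intervals wholly below 0 were counted at 10 of 61 windows in Ezh1 KO cells and 3 in Ezh2 KO cells, against 4.69% and 15.8% of all windows. Wholly above 0 there were 0 in Ezh1 KO cells and 7 in Ezh2 KO cells, against 29.1% and 8.36% of all windows.

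**Figure D2:**
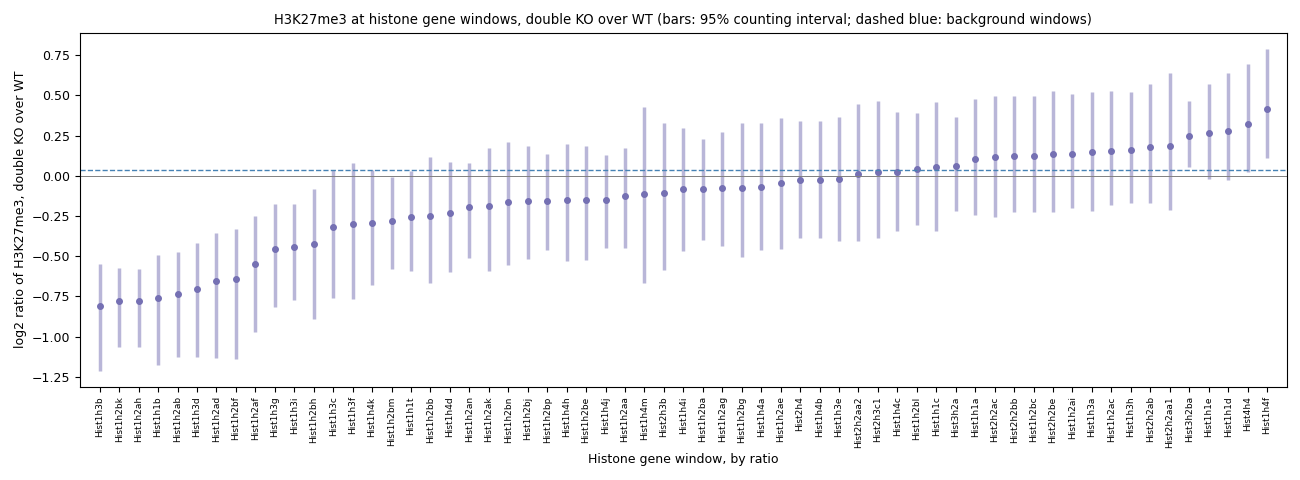
Log2 ratio of H3K27me3 area, double KO over WT (y axis), for 61 histone gene windows ordered by ratio (x axis), with bars for the 95% counting interval and a dashed line for the median of background windows at 0.04. The points include the 1 added to both values and the bars do not. The ratios run from -0.81 at Hist1h3b to 0.41 at Hist1h4f, and no point reaches a 2-fold difference.

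Against the single mutants, the double KO had a median histone log2 ratio of 0.03 over the Ezh1 KO. This lies beside -0.05 for all windows and 0.06 for background windows. Of the histone windows 35 lay above 0 and 26 below, with 42% of all windows above 0. No window over the minimum was 2-fold different, against 0.0167% of all windows higher and 0.206% lower. At 1.5-fold, 1 was higher and 8 were lower, against 0.373% and 2.18% of all windows. The 1 higher was Hist1h1d, at 0.69. Over the Ezh2 KO the median was -0.20, beside 0.05 for all windows and -0.04 for background windows. Of the histone windows 8 lay above 0 and 53 below, where 58.1% of all windows lay above 0. Again none of these was 2-fold different, against 0.0167% of all windows higher and 0.0167% lower.

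On the deposited scale, most RNA values of the histone rows were high among all rows. The RNA value of a row is the mean over its exons of the highest coverage per M reads, a height that is not divided by length. At least 1 was reached by 44 of the 48 histone rows in each of the 4 libraries, 91.7%, against 21.6% of all rows in Ezh1 KO cells, 22.4% in Ezh2 KO cells, 22.1% in double KO cells and 22.8% in WT. The top 5% of all rows held 25 histone rows in Ezh1 KO cells, 36 in Ezh2 KO cells, 30 in double KO cells and 26 in WT. Most histone rows have 1 exon, and near-identical rows may hold the same reads, as given below. These counts therefore rank rows on this scale and do not rank the expression of single genes. The median histone row had 5.75 in Ezh1 KO cells, 8.72 in Ezh2 KO cells and 7.25 in double KO cells, against 6.20 in WT.

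The highest rows were Hist2h2aa2, an H2A gene, and Hist2h3c1, an H3 gene, whose exons overlap and whose values were nearly equal. Hist2h2aa2 had 57.8 in Ezh1 KO cells, 77.7 in Ezh2 KO cells and 63.1 in double KO cells, against 65.6 in WT. Hist1h1c was the highest linker histone row, with 41.6, 42.8 and 47.2 in the 3 mutants and 41.2 in WT. Among H2B rows the highest in WT was Hist1h2bb, at 31.7. Hist2h4 was the highest H4 row, with 22.4 in Ezh1 KO cells, 29.6 in Ezh2 KO cells and 33.2 in double KO cells, against 32.1 in WT. The WT class medians were 6.97 for H1, 32.7 for H2A, 3.36 for H2B, 3.26 for H3 and 16.7 for the 2 H4 rows.

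Members known for their use in male germ cells were low beside most other histone rows. Among all rows in WT, Hist1h2ba lay at or above 77.2% and Hist1h1t at or above 55.2%. Hist1h1t had 0.166, 0.0246 and 0.0952 in the 3 mutants and 0.130 in WT, and Hist1h2ba had 0.459, 1.12 and 0.623, against 0.997 in WT. Hist1h2aa was listed at 0 in Ezh1 KO cells, the Ezh2 KO and WT and at 0.0106 in double KO cells. Hist3h2ba was also under 1 in every library, with 0.346, 0.522 and 0.513, against 0.395 in WT. It was also 1 of the 3 windows with the most H3K27me3.

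**Figure D3:**
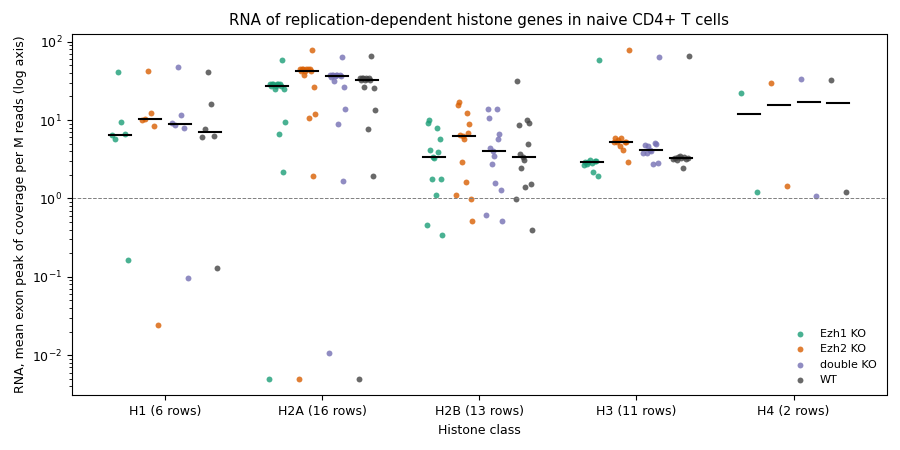
RNA height per M reads (log y axis) of the 48 histone rows by class (x axis) and genotype, with 1 point per row and a bar for the class median. Values listed at 0 are drawn at the bottom, most rows lie above the dashed line at 1, and the H2A median of Ezh2 KO cells lies above that of WT, at 42.0 against 32.7.

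Many of these rows cannot be read gene by gene. Of the 48 rows, 41 share 50-base stretches of exon with another histone row, and the median row had 43.5% of its stretches found once in mm9. A group of 6 H2A rows, Hist1h2ab, Hist1h2ad, Hist1h2ae, Hist1h2ah, Hist1h2ai and Hist1h2an, lay within 5% of each other in every library, at 28.6 to 28.7 in Ezh1 KO cells, 44.2 to 44.5 in Ezh2 KO cells and 37.1 to 37.4 in double KO cells, against 33.8 to 34.4 in WT. Hist1h2ac, Hist1h2ag and Hist1h2ao were also close to each other, at 32.2 to 32.7 in WT. Hist1h2ao had an RNA value of 32.6 in WT although none of its exon stretches of 50 bases occurs once in mm9. Near-equal rows may hold the same reads, and their copies cannot be told apart. The row named Hist2h4 spans 12 exons that overlap 12 annotated H4 genes on chromosomes 13 and 3, which covers the 10 H4 genes with a window but no row of their own. The row named Hist2h2bb has 7 exons over Hist1h2bc, Hist1h2be and Hist1h2bg on chromosome 13, although the annotation puts Hist2h2bb on chromosome 3. Hist2h2aa1, the remaining gene without a row, is covered by the Hist2h2aa2 and Hist2h3c1 rows.

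The Ezh2 KO had more histone RNA than WT in most rows. Over 45 rows the median log2 ratio was 0.38, with 37 above 0 and 8 below, while the median of all 5347 rows tested was -0.04 and 43.6% of them lay above 0. None was at least 2-fold higher and 1, Hist1h2bb, was 2-fold lower, against 1.10% and 0.393% of all rows. At 1.5-fold 13 were higher, against 3.39% of all rows, and 2 were lower, Hist1h2bb and Hist2h2be, against 2.81%. The H3 rows had the highest class median, 0.72 or 1.65-fold, with 10 of 11 above 0, followed by H1 at 0.42, H2A at 0.37, H2B at 0.26 and H4 at 0.05. The H3 rows share exon stretches, and Hist1h3h and Hist1h3i both had 5.31 in Ezh2 KO cells. Rows that share stretches are not separate values, in these counts and in those below. The row furthest up was Hist1h2bf, an H2B gene, with 17.0 in Ezh2 KO cells, against 8.64 in WT, 1.95-fold and just under the 2-fold line. Hist1h3f had 5.90 in Ezh2 KO cells, against 3.24 in WT, a log2 ratio of 0.85, and Hist1h3b had 5.92, against 3.30, a ratio of 0.82. Hist1h1a, a linker histone gene that shares no exon stretch with the other rows, had 10.1, against 6.08, a ratio of 0.73.

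S phase genes were also higher, in most cases, in Ezh2 KO cells. The 23 measured members of the S phase and proliferation list summed to 34.4 in Ezh1 KO cells, 46.3 in Ezh2 KO cells and 36.3 in double KO cells, against 34.4 in WT. In the Ezh2 KO 12 of 13 members over the minimum lay above 0, with a median log2 ratio of 0.33. All rows tested there had a median of -0.04, and 43.6% of them lay above 0. Birc5, an inhibitor of apoptosis that acts in mitosis, was the only member 2-fold different in the Ezh2 KO. It had 1.59 in Ezh2 KO cells, against 0.641 in WT, where 1.10% of all rows were at least 2-fold higher. Pcna, the sliding clamp of DNA polymerase, had 13.7, against 10.9, and Tyms, thymidylate synthase, had 6.66, against 4.14. The part of cycling cells, or of the B cell and CD8 T and NK markers given above, in the histone RNA values was not tested.

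The double KO also had more histone RNA than WT in most rows, with a smaller median. It was 0.17 over 44 rows, with 35 above 0 and 9 below, while the median of all 5313 rows was -0.10 and 32.9% lay above 0. None was 2-fold higher and 1, again Hist1h2bb, was 2-fold lower, against 1.07% and 0.169% of all rows. H3 had the highest class median, 0.27, followed by H1 at 0.20, H2B at 0.17, H2A at 0.13 and H4 at -0.06. The rows at least 1.5-fold higher were Hist1h1a, with 9.24 against 6.08 in WT, and Hist1h3i, with 4.90 against 3.22, beside 2.65% of all rows. Hist1h2bb alone was 1.5-fold lower, beside 2.33%. The 8 genes whose H3K27me3 was at least 1.5-fold lower in double KO cells had RNA log2 ratios of 0.12 to 0.52, from Hist1h2ab to Hist1h3b. The median of all histone rows was 0.17 in the same comparison. Of these 8 only Hist1h1b shares no exon stretch with other histone rows, and 3 are H2A rows that cannot be told apart. In Ezh1 KO cells the 2 genes with H3K27me3 at least 1.5-fold lower, Hist1h2ab and Hist1h3b, had RNA log2 ratios of -0.26 and -0.18. The histone median there was -0.21.

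The Ezh1 KO had less histone RNA than WT in most rows, close to the shift of all genes. Over 44 rows the median was -0.21, with 9 above 0 and 35 below, while the median of all 5201 rows was -0.13 and 22.7% lay above 0. None was 2-fold higher and 1, Hist1h2bb, was 2-fold lower, against 0.154% and 0.288% of all rows. Lower by 1.5-fold were 4 rows, Hist1h2bb, Hist1h1d, Hist2h3b and Hist2h2bb, against 2.73% of all rows. Class medians were 0.02 for H1, -0.18 for H3, -0.24 for H2A, -0.27 for H4 and -0.30 for H2B. Hist1h1d, a linker histone gene, had 9.42 in Ezh1 KO cells, against 16.1 in WT, a log2 ratio of -0.77, and it was also lower in Ezh2 KO cells, at -0.40, and in double KO cells, at -0.45. These 3 ratios share the WT library.

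**Figure D4:**
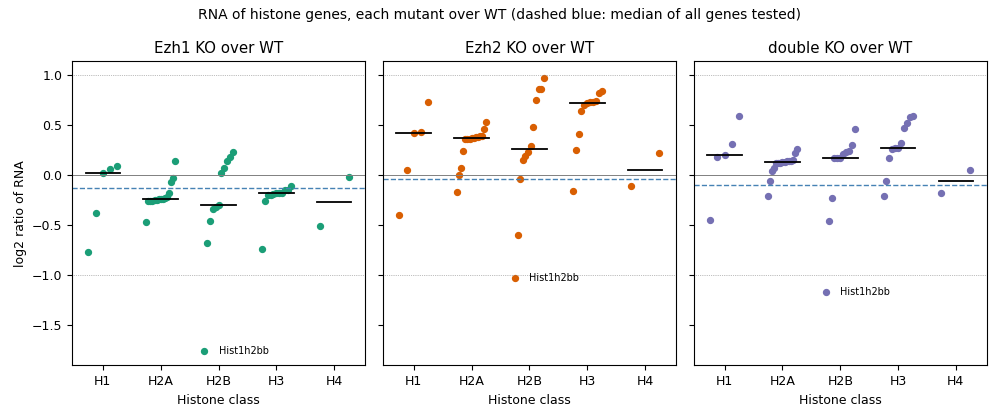
Log2 ratio of RNA over WT (y axis) for each histone row over the minimum, by class (x axis), in Ezh1 KO cells, Ezh2 KO and double KO, with black bars for class medians and a dashed line for the median of all rows tested. Hist1h2bb lies lowest in each panel, at -1.77, -1.03 and -1.17, and the H3 rows of Ezh2 KO cells run from -0.16 to 0.85 around a median of 0.72.

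Hist1h2bb, an H2B gene on chromosome 13, was the only histone row over the minimum value of 1 that was at least 2-fold different from WT in any mutant. Its RNA was 9.24 in Ezh1 KO cells, 15.5 in Ezh2 KO cells and 14.0 in double KO cells, against 31.7 in WT. The WT library stood above all 3 mutants, and the Ezh1 KO was lowest. Its log2 ratios to WT were -1.77, -1.03 and -1.17, and all 3 rest on the 1 WT library. In its exon 56.2% of 50-base stretches occur once in mm9, and the rest are shared with other H2B rows, which did not share 1 direction. Hist1h2bf was higher in each mutant than in WT, with 10.2, 17.0 and 10.7, against 8.64, and Hist2h2bb was lower in each, with 5.68, 8.91 and 6.63, against 9.16. As a median over its 7 exons, however, Hist2h2bb had 0.703, 0.867 and 1.02, against 0.931 in WT, and was not lower in double KO cells. H3K27me3 at Hist1h2bb was 6.89, 9.21 and 7.30 in the 3 mutants and 8.88 in WT, under the background median in each library. With a pseudocount of 1 in place of 0.1 its ratio in Ezh2 KO cells was -0.99, under the 2-fold line.

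The double KO had more histone RNA than the Ezh1 KO and less than the Ezh2 KO. Over the Ezh1 KO the median log2 ratio was 0.38, with 41 of 44 rows above 0, beside 0.04 for all rows and 60.3% of all rows above 0. No row was 2-fold different, against 0.726% of all rows higher and 0.157% lower, and 7 were at least 1.5-fold higher, against 2.59%. The highest was Hist1h2bn, an H2B gene, with 14.0 in double KO cells, against 7.99 in Ezh1 KO cells, a log2 ratio of 0.80. Over the Ezh2 KO the median was -0.24, with 5 of 45 rows above 0, beside -0.06 for all rows and 38.3% above 0. No row was 2-fold different, against 0.345% of all rows higher and 0.441% lower, and the 4 at least 1.5-fold lower, Hist1h2ba, Hist1h2bl, Hist1h2bf and Hist1h2bk, were all H2B genes, against 1.72% of all rows. Hist1h2bl and Hist1h2bk have 3 exons each. As a median over exons Hist1h2bl had 0.0531 in double KO cells, against 0.0325 in Ezh2 KO cells, and Hist1h2bk had 0.0327, against 0.0315. Neither was lower on that scale, but these medians lie far under the minimum value of 1 and do not settle a direction.

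The H4 total depended on how exons were averaged. As a mean over its 12 exons Hist2h4 had the values given above, 29.6 in Ezh2 KO cells, against 32.1 in WT. As a median over exons it had 11.5 in Ezh1 KO cells, 18.5 in Ezh2 KO cells and 13.1 in double KO cells, against 10.4 in WT, so that the direction turned in Ezh1 KO cells and the Ezh2 KO.

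The other genes of histone supply follow for comparison. The 7 replication-independent histone genes over the minimum had median log2 ratios to WT of -0.32 in Ezh1 KO cells, -0.04 in Ezh2 KO cells and -0.25 in double KO cells, with 0, 3 and 1 above 0, where 22.7%, 43.6% and 32.9% of all rows lay above 0. H3f3a, which encodes the variant H3.3, had 35.0, 37.8 and 30.7, against 36.6 in WT, and H3f3b, the second gene for H3.3, had 17.0, 18.4 and 16.5, against 17.0. Of the 15 measured genes of histone mRNA synthesis and processing over the minimum, none was 2-fold different in RNA in any mutant, and medians were -0.13, 0.01 and -0.12. Slbp, which binds the stem-loop, had 2.73, 3.55 and 2.87, against 3.40 in WT. The 13 histone chaperones over the minimum also held no 2-fold difference, with medians of -0.24, -0.03 and -0.13. All rows had medians of -0.13, -0.04 and -0.10 in the same order. Of all rows 0.154%, 1.10% and 1.07% were at least 2-fold higher, and 0.288%, 0.393% and 0.169% at least 2-fold lower. A list of this size would thus seldom hold such a row. In H3K27me3 the 1 gene of these 3 lists at 2-fold was Coil, which encodes coilin of the Cajal body, with 17.7 in Ezh1 KO cells, 110.0 in Ezh2 KO cells and 17.5 in double KO cells, against 132.8 in WT.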

How the data were processed

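H3K27me3 ChIP-seq and mRNA-seq values were used as deposited. Per the labels, reads of 50 cycles were aligned to mm9 with Bowtie 0.12.7 with at most 2 errors and kept at a single location. In RNA, Hist1h2ao and Hist2h2aa2 had 32.6 and 65.6 in WT although none of their exon stretches of 50 bases occurs once in mm9. A single-location rule would not be expected to give such values. How RNA reads with several locations were handled is not given. Cufflinks, Cuffdiff and bcl2fastq are listed too, per the submitters' processing notes. Per the file headers the deposited ChIP signal is each start site window's area and its highest bin, and the deposited RNA signal is the mean and median over exons of the peak of coverage; the other deposited number is that of exons. From the values, both are per M reads, and ChIP reads were extended to 151 bp. Input was not used here.

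Log2 ratios were formed after adding 1 to ChIP and 0.1 to RNA values. A window or row entered a comparison at a value of at least 1 in the higher library, which 61 of 62 histone windows and 44 or 45 of 48 rows did; differences of 2-fold were counted. The plan allowed for counts, but the files hold signal. Counting intervals of 95% (Clopper-Pearson, scipy 1.17.1) were taken from read equivalents, without the added 1, for ChIP only. They hold counting error only: PCR reads with no molecular identifiers do not stand for separate molecules. The ratio calls and the counting intervals were tested on simulated data. The members and gene lists were chosen with earlier results of these data known. Named are members at 2-fold, the 3 highest and lowest windows, the 3 largest window differences each way, the highest row of each class, testis-type members, and genes chosen after their values were seen to show each group. Windows were matched to GENCODE vM1 on mm9, and 58 of 62 lay within 1 kb of the annotated start; the others were Hist1h4m, Hist2h2bb, Hist2h2aa1 and Hist2h2aa2. Alternatives were 2 other scalings in both assays, scaling to background or marked windows (2231 windows at 4 times background in WT) in ChIP, pseudocounts, minimum values, a 1.5-fold threshold, the highest bin, the median over exons, and overlapping windows counted once. Scripts used Python 3.11.15, pandas 2.3.3 and numpy 2.4.6.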

Additional observations from a re-analysis of the deposited data

Results flagged for a closer look

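RNA of Hist1h2bb differed in direction between the 2 comparisons that remove Ezh2. In the Ezh2 KO against WT its log2 ratio was -1.03, and in double KO cells against the Ezh1 KO it was 0.60. The first pair of values is 15.5 in Ezh2 KO cells and 31.7 in WT, and the second is 14.0 in double KO cells and 9.24 in Ezh1 KO cells. With 1 library per genotype the difference between the comparisons was not tested.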

How the results depend on the processing

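No paired analysis was possible because each group has 1 library and the labels give no replicate numbers. Of the summary values recomputed under the alternatives, 192 stayed within their tolerance and 15 moved, and none reversed beyond it. Of the other values recomputed, 20 stayed the same and 1 was weaker. Still, as given above, the sign of the small histone offset in H3K27me3 of Ezh2 KO cells turned with the highest bin. The direction of Hist2h4 RNA also turned in Ezh1 KO cells and the Ezh2 KO with the median over exons. At 1.5-fold, the H3K27me3 counts of different windows were 2 in Ezh1 KO cells and 8 in double KO cells against WT and 9 in double KO cells against the Ezh1 KO, where the count at 2-fold was 0. The RNA counts at 1.5-fold were 4 in Ezh1 KO cells, 15 in Ezh2 KO cells and 3 in double KO cells against WT, and 7 against the Ezh1 KO and 4 against the Ezh2 KO for the double KO. Without a minimum value, the RNA median of histone rows less that of all rows in Ezh1 KO cells was -0.18, where it was -0.08 with one, as more low rows entered. With Hist1h2bb left out, chosen after seeing the data, the RNA count at 2-fold was 0 in each mutant against WT, and with the larger pseudocount it was 0 in Ezh2 KO cells. At 2 times the background median 3 windows counted as marked in WT, and the histone median was 0.686 times the median when all windows with signal served as background. Depth limits single windows more than the list, since a median window held 121 to 142 read equivalents. A gain or loss common to all windows cannot be seen in values per M reads.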
